A study of Mus musculus with 12 samples.

Results

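The comparison described here is that of simvastatin-fed with chow-fed female mice, which are the livers numbered F6011 to F6013 (chow) and F6016 to F6018 (statin) in the labels, and it takes in all 11968 genes of the deposited count table. These 6 livers were chosen by their labels from 12, the other 6 being the corresponding males. All mice were C57BL/6J, an inbred strain, and the labels name no engineered allele. Chow-fed and statin-fed females, 3 mice each, began their diets at 8 to 10 weeks of age and were kept on them for 4 weeks. The statin diet carried 0.1 g of simvastatin per kg, which the labels count per kg of body weight and the methods of the study per kg of food. The labels print the same diet code for the chow and the statin groups, whereas the methods give that code to the statin formulation alone. The study asked why adverse effects of statins are more common in females, and RNA of whole liver was sequenced for that purpose. Whether mice of a group shared a cage or litter is not stated, so the spread between livers given here is that between these animals only.

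Simvastatin blocks the mevalonate pathway, which leads from acetyl-CoA to cholesterol and to the isoprenoids that anchor small GTPases to membranes. In hepatocytes a fall in sterols releases the transcription factor SREBP-2, which raises the enzymes of the pathway and cholesterol uptake, while its relative SREBP-1c together with ChREBP drives sugar breakdown and fat synthesis after a meal. Nuclear receptors of the liver sense other small molecules, PPAR-alpha responding to fatty acids, PXR and CAR to drugs and steroids, and FXR to bile acids. The liver also holds a strongly sexed programme, set by the pattern of growth hormone release through STAT5b, under which several cytochrome P450 genes are expressed almost only in females.

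Between 46066381 and 60419223 reads per liver were counted. Defining markers of hepatocytes, Kupffer cells, endothelium and stellate cells were detected in every female liver and their summed levels overlapped between chow and statin. Of the 12 stellate cell and fibroblast markers 11 had negative log2 fold changes (median -0.22), 1 lower and 1 higher at an unadjusted p under 0.05, and without female statin replicate 2 there were 7 lower (median -0.58). The 10 endothelial markers had 0 called (median -0.06), or 3 lower without that liver (median -0.23). Of the 9 hepatocyte markers 2 were higher and 1 lower (median 0.30), 4 higher without female statin replicate 1, 0 higher without female statin replicate 3 and 3 lower without female statin replicate 2. The 14 Kupffer cell and macrophage markers had 0 called, also without any 1 female liver. The 3 tested cholangiocyte markers were all negative (median -0.27), with 0 called, or 2 lower without female statin replicate 2. The 13 lymphocyte and neutrophil markers, of which Ly6g was under 0.1 CPM in all 6 livers, summed to 27.3 to 35.4 CPM (read counts scaled to a common library size) on chow and 35.7 to 48.4 CPM on statin, without overlap. The part of these cell types in the results below was not tested. Only 2 of the 13 passed the filter on low counts, the panleukocyte marker Ptprc, with a log2 fold change of 0.48 (SE 0.21, unadjusted p = 0.0371), and the immunoglobulin gene Ighm, with one of 0.36 (SE 0.33, unadjusted p = 0.288). The call of Ptprc was lost without female chow replicate 1 or 2 or female statin replicate 1 or 2, with library size alone and with the offset for transcript length. Since whole tissue was sequenced, fewer cells of a type and less RNA per cell cannot be told apart. Within groups, 57.4% of the variance of 7641 well-expressed genes lay along one axis whose weights varied with exon length (absolute Spearman correlation 0.452 over genes, whose values are not independent of each other). Female statin replicates 1 and 2 stood at opposite ends of it among the females. The spread was also wider on statin, with a median SD of the log2 level of 0.252 against 0.153 on chow.

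With statin, 12 genes of 11968 differed at an adjusted p under 0.05 in females (0.100%), 10 rising (0.0836%) and 2 falling (0.0167%). The first 5 described are a pair of thioesterases, a peroxisomal protein and transporters of fatty acids and carnitine. Acot1 (chr12:84009490-84018371 in GRCm38), a cytosolic thioesterase that splits acyl-CoA into free fatty acid and coenzyme A, was at 18.2, 9.98 and 11.7 CPM in the 3 chow livers and 44.7, 53.2 and 78.5 CPM in the 3 statin livers. Its mitochondrial relative Acot2 (chr12:83987861-83993873) was at 7.37, 4.83 and 7.31 CPM in the 3 chow livers and 18.9, 17.0 and 26.0 CPM in the 3 statin livers. For both genes every statin liver lay above every chow liver, statin replicate 3 being the highest, and the log2 fold changes (log2FC, statin minus chow) were 2.14 (SE 0.27, adjusted p = 0.0306) and 1.66 (SE 0.22, adjusted p = 0.0306) in edgeR's quasi-likelihood test. The genes are close copies that lie side by side on chromosome 12, and the counting could have divided reads between them.

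Pex11a (chr7:79735957-79743131), which makes peroxisomes divide, was at 76.0, 67.8 and 69.7 CPM on chow and 156, 113 and 154 CPM on statin, and its log2 fold change was 0.99 (SE 0.16, adjusted p = 0.0382) in edgeR. Slc27a1 (chr8:71568882-71587302), a transporter that brings long-chain fatty acids into the cell, was at 5.25, 3.94 and 5.89 CPM on chow and 10.3, 9.92 and 12.7 CPM on statin and rose by 1.13 (SE 0.17, adjusted p = 0.0382) on the log2 scale in edgeR. Slc22a5 (chr11:53864542-53891660), the carnitine transporter OCTN2, was at 30.7, 26.0 and 33.1 CPM on chow and 54.6, 45.1 and 53.3 CPM on statin and rose by 0.77 (SE 0.12, adjusted p = 0.0382) in edgeR. Carnitine carries long-chain acyl groups into mitochondria. For none of these 5 genes did the female groups overlap.

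The other called genes belong to scattered functions. Cyp3a16 (chr5:145436309-145469723), a cytochrome P450 of the female mouse liver, was at 39.8, 47.3 and 82.6 CPM on chow and 191, 138 and 258 CPM on statin, a rise of 1.79 (SE 0.28, adjusted p = 0.0382) on the log2 scale in edgeR. In males it was near 0, at 0.131, 0.207 and 0.113 CPM on chow and 0.103, 0.116 and 0.214 CPM on statin. Tlr12 (chr4:128615443-128618619), a Toll-like receptor for profilin of parasites, was at 9.02, 5.67 and 8.42 CPM on chow and 16.7, 15.9 and 17.6 CPM on statin and rose by 1.12 (SE 0.18, adjusted p = 0.0382) in edgeR, the 3 statin livers lying close together. Tctn2 (chr5:124598749-124627738), a component of the gate at the base of the primary cilium, rose by 1.34 (SE 0.21, adjusted p = 0.0382) in edgeR at a low level, 1.18, 0.916 and 1.22 CPM on chow and 2.42, 2.72 and 3.26 CPM on statin. Slc6a16 (chr7:45241085-45273367), an orphan member of the neurotransmitter transporter family, had 4, 9 and 3 reads in the chow livers and 38, 36 and 68 in the statin livers. Its log2 fold change was 3.02 (SE 0.43, adjusted p = 0.0310) in edgeR, from chow levels close to the limit that a count of 0 allows (3 reads, or 0.0497 to 0.0651 CPM, for counting error only).

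The remaining 3 are a small GTPase and proteins that switch such GTPases on or off. Rab30 (chr7:92741603-92844535), a GTPase of the Golgi, was at 13.5, 12.4 and 15.9 CPM on chow and 31.9, 26.7 and 42.6 CPM on statin and rose by 1.27 (SE 0.18, adjusted p = 0.0310) in edgeR. Tbc1d8 (chr1:39371492-39478755), of the family of proteins that switch Rab GTPases off, was at 45.8, 34.7 and 28.6 CPM on chow and 15.2, 17.7 and 14.5 CPM on statin, a log2 fold change of -1.20 (SE 0.18, adjusted p = 0.0357) in edgeR. Ralgps1 (chr2:33133417-33371486), an exchange factor that switches Ral GTPases on, was at 25.3, 21.0 and 15.6 CPM on chow and 9.13, 8.70 and 5.62 CPM on statin, a log2 fold change of -1.40 (SE 0.20, adjusted p = 0.0310) in edgeR. Tbc1d8 and Ralgps1 overlap Rpl31 and Angptl2 on the other strand, and how the counting used strand is not given in the sources used here.

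**Figure D1:**
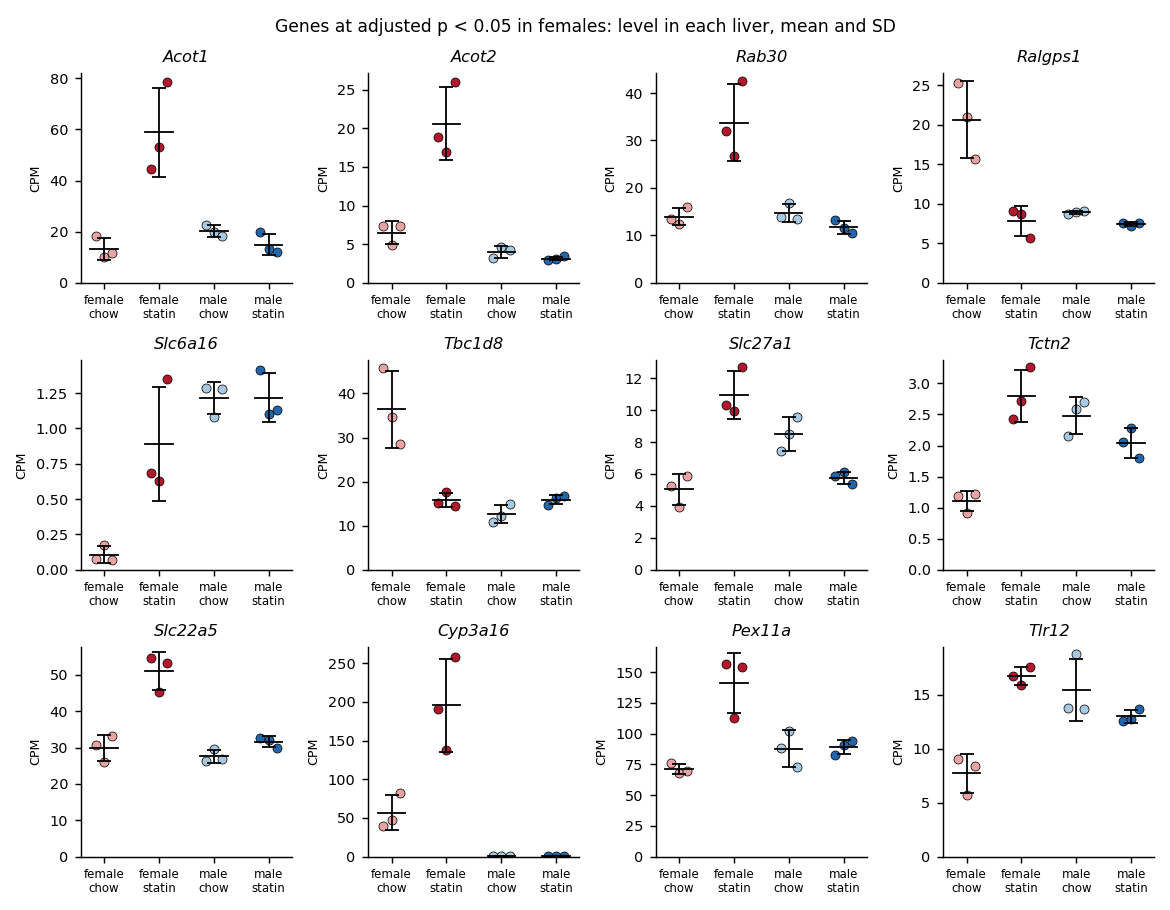
Level in each liver (CPM, linear axis from 0) of the 12 genes at an adjusted p under 0.05 in females, with points for livers, a bar for the mean and whiskers for the SD of 3 livers. In each panel the 3 female statin livers lie apart from the 3 female chow livers, and Cyp3a16 is near 0 in both male groups.

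In males none of these 12 genes had an adjusted p under 0.05, as was true of all genes (0 of 11968, with 234 or 1.96% at an unadjusted p under 0.05; 4 at the adjusted threshold in DESeq2 and 0 in limma). Their male log2 fold changes lay between -0.56 (Slc27a1) and 0.33 (Tbc1d8). Slc27a1 was lower in statin males (unadjusted p = 0.00671 in edgeR), the opposite of its female rise, and the other 11 genes had a male unadjusted p above the threshold of 0.05. The male groups did not overlap for Slc27a1, Rab30, Ralgps1 and Tlr12, with statin below chow, and for Slc22a5, with statin above. The share of all genes whose male groups did not overlap was not computed, so this has no background to be read against. A direct test of the difference between the sexes (sex by statin) left 0 genes at an adjusted p under 0.05 in edgeR (959, or 8.01%, at an unadjusted p under 0.05; 122 at the adjusted threshold in DESeq2 and 0 in limma). Among the 12 the smallest interaction p-value before adjustment was 1.49e-05 for Slc27a1 and the largest 0.0190 for Cyp3a16. These genes were picked by their female contrast, which is part of the interaction contrast, so small values were favoured by the choice. The same holds for other genes chosen by their female p-values. Tlr12, at 9.02, 5.67 and 8.42 CPM on chow and 16.7, 15.9 and 17.6 CPM on statin in females, was at 13.8, 18.8 and 13.7 CPM on chow and 12.5, 12.8 and 13.6 CPM on statin in males, so that statin-fed females lay within the male range. Slc6a16 was at 0.0764, 0.175 and 0.0654 CPM on chow and 0.682, 0.627 and 1.35 CPM on statin in females and 1.29, 1.08 and 1.28 CPM on chow and 1.42, 1.10 and 1.13 CPM on statin in males, and of the statin-fed females replicate 3 alone reached the male range.

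The number of calls depended on single livers. It was 2 without female chow replicate 1, 0 without female chow replicate 2, 16 without female chow replicate 3, 62 and 75 without female statin replicates 1 and 2, and 0 without female statin replicate 3. Of the 16 only 8 were among the 12, Pex11a, Slc6a16, Tctn2 and Tlr12 being lost, and of the 2 only 1 was. The 62 and the 75 held all 12. Leaving out any male liver, which enters through the shared estimate of spread, gave 0 calls except without male statin replicate 1, which gave 1. The directions of the 12 genes were the same in all of these fits. By gene, Cyp3a16, Pex11a, Slc22a5 and Tlr12 lost their calls with library size alone or upper quartile scaling, and Cyp3a16 with limma. With a stricter filter on low counts Cyp3a16, Pex11a and Tlr12 lost theirs and Slc27a1, Slc6a16 and Tctn2 were not fitted. With the female livers fitted alone, 0 of the 12 were called, and with the replicate number as a block 4 were, Acot1, Acot2, Ralgps1 and Cyp3a16. All 12 were also called by DESeq2 and by edgeR with DESeq2's size factors.

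Upstream sequence is shown for 3 of the called genes, for the neighbours Acot1 and Acot2, which rose together, and for Cyp3a16, the called gene with male levels near 0. Each is the stretch of 150 bases before the RefSeq start (GRCm38.p6), 5′ to 3′ on the gene's strand, with CCAAT and TATAAA motifs on that strand or its reverse in capitals.
Acot1 (chr12:84009352-84009501, plus strand): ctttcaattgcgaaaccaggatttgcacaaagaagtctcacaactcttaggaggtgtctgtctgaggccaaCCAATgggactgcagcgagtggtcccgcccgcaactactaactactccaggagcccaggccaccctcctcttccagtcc
Acot2 (chr12:83987711-83987860, plus strand): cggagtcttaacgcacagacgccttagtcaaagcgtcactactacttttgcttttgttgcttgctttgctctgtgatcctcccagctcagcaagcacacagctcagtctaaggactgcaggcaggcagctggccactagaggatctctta
Cyp3a16 (chr5:145469724-145469873, minus strand): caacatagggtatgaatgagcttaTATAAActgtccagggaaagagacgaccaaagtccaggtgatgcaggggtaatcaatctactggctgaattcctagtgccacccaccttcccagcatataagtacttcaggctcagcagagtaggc
Of the 12 genes 11 had a RefSeq promoter of 300 bases (250 before and 50 after the start), and 5 of the 11 held CCAAT on either strand, against 42.8% of the promoters of all genes tested. TATAAA stood in 1 of the 11, against 9.27% of all promoters. A match is a description of these letters only.

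Below the adjusted threshold, 1256 genes (10.5%) had an unadjusted p under 0.05 in females, 710 higher (5.93%) and 546 lower (4.56%), while in 722 genes (6.03%) all statin livers exceeded all chow livers and in 715 (5.97%) the reverse held. These shares are the background against which the gene lists were read, and the median log2 fold change over all genes was 0.01. Scaling by library size alone gave 562 higher of 1224, and an offset for transcript length gave 879 higher of 1318. No member of the lists below passed the adjusted threshold except the genes already described, so what follows speaks of higher and lower members at the unadjusted one. Where leaving out 1 female liver moved a count by over 1.5 times the value is given, apart from changes of 1 gene in counts of 0 or 1. The 2 lists with medians farthest from 0, fatty acid synthesis (10 of 15 lower, median log2 fold change -1.19) and PPAR-alpha targets (19 of 24 higher, median 0.93), are given for scale. Without female chow replicate 1, female chow replicate 2, female statin replicate 2 or female statin replicate 3 the synthesis list had 5, 5, 6 and 6 lower members.

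**Figure D2:**
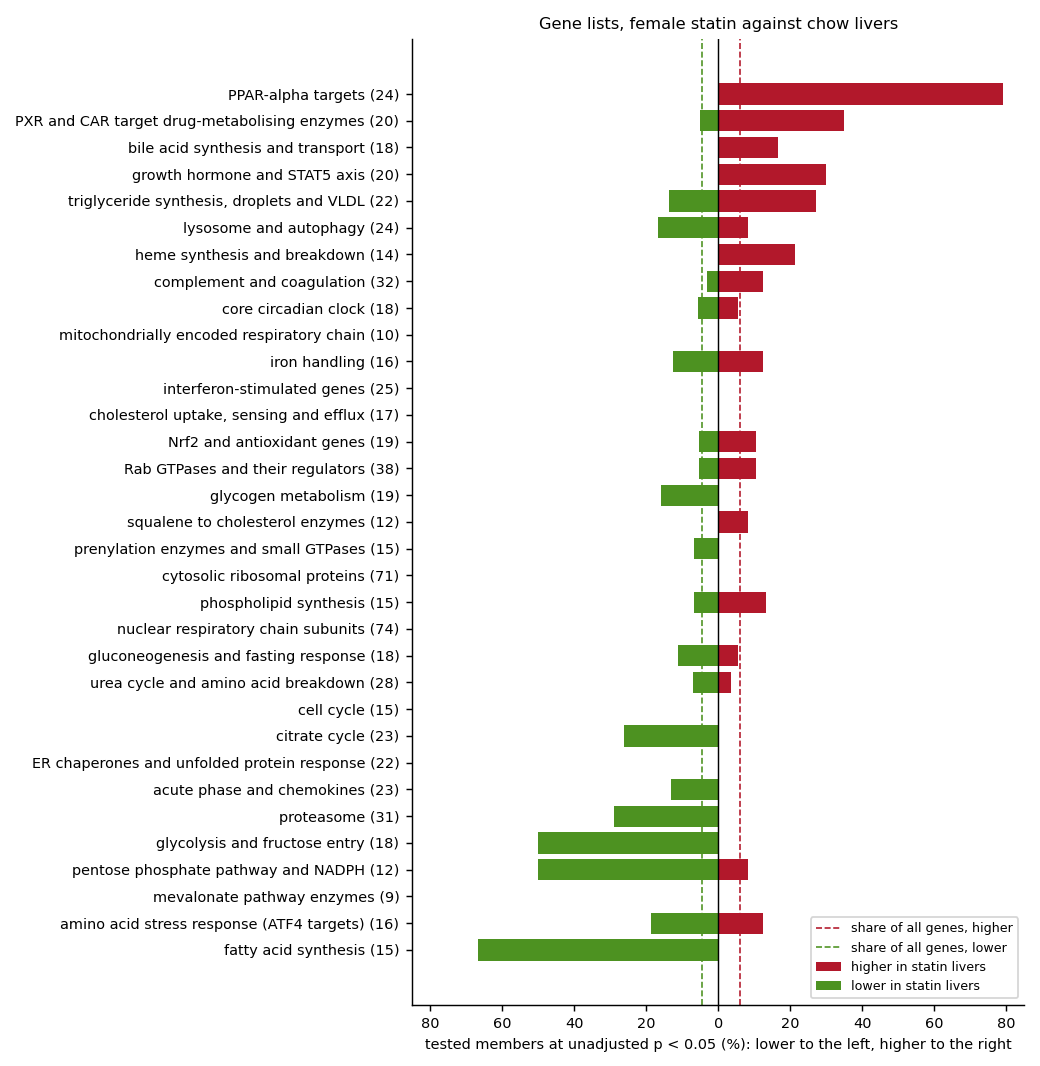
Share of the tested members of each gene list (number tested in parentheses) at an unadjusted p under 0.05 in females, lower members to the left and higher members to the right, with dashed lines at the shares of all genes (4.56% lower, 5.93% higher). Beside the fatty acid lists, the sugar routes, citrate cycle and proteasome stand out to the left and the PXR and CAR targets, growth hormone axis, triglyceride and droplet genes and heme synthesis to the right, and 8 lists have no called member.

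Few genes of the pathway that simvastatin blocks were called. Of the 9 mevalonate enzymes 0 were called in either direction, of the 12 enzymes from squalene to cholesterol 1 was higher and 0 lower, and of 17 genes of cholesterol uptake, sensing and efflux 0 were called. The median log2 fold change of the mevalonate list was -0.37 in females and 0.17 in males, and -0.69 to -0.09 with 1 female liver left out. Srebf2, which encodes SREBP-2, had a log2 fold change of 0.16 (SE 0.18). Without female statin replicate 1 the mevalonate list had 3 lower members and the squalene and uptake lists 2 each. Among 15 prenylation enzymes and small GTPases with their regulators 1 was lower, the shared beta subunit of protein farnesyltransferase, Fntb (log2FC -0.69, SE 0.22). That count became 0 without female chow replicate 1, 2 without female statin replicate 1 and 3 without female statin replicate 2.

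Downstream of cholesterol, Cyp7a1, the rate-limiting enzyme of bile acid synthesis, was at 65.0, 44.6 and 57.8 CPM in the 3 chow livers and 142, 153 and 621 CPM in the 3 statin livers. All statin livers lay above all chow livers, replicate 3 far above the other two, and the log2 fold change was 2.45 (SE 0.48, adjusted p = 0.0951) in edgeR. Of 18 genes of bile acid synthesis and transport 3 were higher and 0 lower, with a median of 0.28 (0.16 to 0.35 with 1 female liver left out). The others were Amacr, the racemase of side-chain shortening (log2FC 0.41, SE 0.14), and the uptake carrier Slco1b2 (log2FC 0.48, SE 0.19). This count rested on single livers, being 5, 8 and 1 without female statin replicates 1, 2 and 3. Nr1h4, the bile acid receptor FXR, had a log2 fold change of 0.34 (SE 0.16, unadjusted p = 0.0519) although its groups did not overlap.

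The list of drug-metabolising genes under PXR and CAR, which also held the gene of CAR itself, had more higher than lower members. Of 20 tested 7 were higher (35.0%) and 1 lower, with a median log2 fold change of 0.52 in females and -0.09 in males. With 1 female liver left out the female median was 0.34 to 0.71. Beside Cyp3a16, the higher enzymes were Cyp3a41b (log2FC 1.04, SE 0.21), Cyp3a41a (log2FC 0.38, SE 0.15), Cyp3a44 (log2FC 1.13, SE 0.45), Cyp3a25 (log2FC 0.66, SE 0.19) and Cyp3a13 (log2FC 0.63, SE 0.29). The other higher member was Nr1i3, the gene of CAR, a regulator and not an enzyme. It was at 101, 147 and 135 CPM in the 3 chow livers and 297, 148 and 442 CPM in the 3 statin livers. Every statin liver lay above every chow liver, replicate 2 only just, and the log2 fold change was 1.21 (SE 0.32, adjusted p = 0.177) in edgeR. The main P450 of the family in mice, Cyp3a11, was at 1896, 1803 and 2684 CPM on chow and 2265, 1868 and 3243 CPM on statin with overlapping groups (log2FC 0.21, SE 0.21, unadjusted p = 0.343). Cyp3a16, Cyp3a41a, Cyp3a41b and Cyp3a44 are near-identical copies whose reads the counting could have divided. For Cyp3a44 and Cyp3a13 the groups overlapped. Gstm1, a glutathione transferase, was the lower member (log2FC -0.48, SE 0.20), and its call was lost without any of female chow replicates 1 and 3 and female statin replicates 1 and 3.

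Cytochromes need heme, and 3 of 14 genes of heme synthesis and breakdown were higher and 0 lower. Alas1, the first and rate-limiting enzyme, was at 220.3, 166 and 351 CPM in the 3 chow livers and 509, 439 and 676 CPM in the 3 statin livers (log2FC 1.14, SE 0.33, unadjusted p = 0.00495). Cpox, coproporphyrinogen oxidase, was at 105, 84.9 and 87.0 CPM in the 3 chow livers and 115, 165 and 235 CPM in the 3 statin livers (log2FC 0.90, SE 0.21, unadjusted p = 0.00105). Alad, which joins 2 molecules of aminolevulinate, had a smaller difference of 0.40 (SE 0.15). In all 3 genes the groups did not overlap, although the lowest statin liver for Cpox stood just above the highest chow liver, and without female statin replicate 2 the count was 5, while without replicate 1 there were 2 lower members. Fech, which inserts the iron, also lay wholly higher on statin but at a log2FC of 0.19 (SE 0.12) with an unadjusted p of 0.134. The male log2 fold changes were 0.46 for Alas1 and -0.13 for Cpox, and the interaction p-values before adjustment 0.171 and 0.00446.

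The routes by which liver takes sugar toward fat held many lower members. Of 18 genes of glycolysis and fructose entry 9 were lower (against 4.56% of all genes) and 0 higher, and 10 lay wholly below chow. Gpi1, which interconverts glucose and fructose 6-phosphate, was at 735, 592 and 698 CPM in the 3 chow livers and 379, 399 and 294 CPM in the 3 statin livers (log2FC -0.92, SE 0.18, adjusted p = 0.0951 in edgeR). Ketohexokinase, Khk, which admits fructose, was at 1004, 1247 and 1246 CPM in the 3 chow livers and 927, 526 and 485 CPM in the 3 statin livers (log2FC -0.85, SE 0.28). The triokinase Tkfc was at 897, 609.6 and 767 CPM in the 3 chow livers and 409, 494 and 337 CPM in the 3 statin livers (log2FC -0.88, SE 0.19). No liver overlapped between the groups for any of these, and for Khk statin replicate 1 was closest to chow. Pklr, the pyruvate kinase of liver, had a log2 fold change of -0.92 (SE 0.31). Also lower were Pfkfb3 and Pfkfb1, which set the level of fructose 2,6-bisphosphate, with log2FC of -0.78 (SE 0.22) and -0.65 (SE 0.21), Gapdh at a log2FC of -0.47 (SE 0.16) and Eno1 at a log2FC of -0.43 (SE 0.15). Leaving out any 1 liver left 7 to 9 of the 18 lower, and without female statin replicate 1 there were 2 higher.

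The transcription factor of the route, Mlxipl (ChREBP), was lower (log2FC -0.59, SE 0.19). The insulin-responsive glucose transporter Slc2a4, better known from muscle and fat, was at 38.7, 27.2 and 18.8 CPM in the 3 chow livers and 4.14, 10.3 and 0.636 CPM in the 3 statin livers (log2FC -2.48, SE 0.67, adjusted p = 0.187 in edgeR), with the lowest value in statin replicate 3. In males the median of the glycolysis list was 0.05, and Pfkfb3 went the other way at 1.05 (interaction p before adjustment 8.04e-05).

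The pentose phosphate pathway, which makes NADPH for fat synthesis, had 6 of 12 members lower and 1 higher. Pgd, the second NADPH-forming step, was at 229, 159 and 156 CPM in the 3 chow livers and 92.7, 68.4 and 32.6 CPM in the 3 statin livers (log2FC -1.49, SE 0.30), all statin livers lying below chow. The first enzyme, G6pdx, was at 117, 84.4 and 37.5 CPM on chow and 43.9, 28.7 and 5.33 CPM on statin and overlapped, since the lowest chow liver stood under the highest statin liver (log2FC -1.61, SE 0.60, unadjusted p = 0.0200). The transketolase Tkt (log2FC -0.62, SE 0.22), the transaldolase Taldo1 (log2FC -0.37, SE 0.13), the isomerase Rpia (log2FC -0.64, SE 0.20) and the malic enzyme Me1 (log2FC -1.26, SE 0.51) were the others. The higher member was Nnt, the gene of the mitochondrial transhydrogenase (log2FC 0.39, SE 0.15). This is a value of its RNA, and whether mice of this strain make a working enzyme was not tested. Without female chow replicate 1 the lower count was 3, and the call of Nnt was lost without female chow replicate 2, female statin replicate 2 or female statin replicate 3.

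Of 19 genes of glycogen metabolism 3 were lower and 0 higher. Pygl, the liver phosphorylase that breaks glycogen down, was at 810.5, 629 and 746 CPM in the 3 chow livers and 465, 527 and 269 CPM in the 3 statin livers (log2FC -0.79, SE 0.22). The others were the regulatory subunit Phkb of phosphorylase kinase (log2FC -0.25, SE 0.11) and Ppp1r3g, which targets a phosphatase to glycogen after feeding (log2FC -1.42, SE 0.56, at 13.3, 16.7 and 19.7 CPM on chow and 9.62, 7.97 and 0.934 CPM on statin). Without female chow replicate 3 the count was 1. In gluconeogenesis and the fasting response 1 of 18 was higher and 2 were lower. Pck1 was at a log2FC of -0.22 (SE 0.32) and G6pc at a log2FC of -0.12 (SE 0.34), both with overlapping groups, whereas Creb3l3, a membrane-bound factor of the fasting response, was higher (206, 179 and 230.3 CPM on chow and 343, 281 and 369 CPM on statin, log2FC 0.69, SE 0.14), and the transaminases Got1 (log2FC -1.07, SE 0.30) and Tat (log2FC -0.91, SE 0.28) were lower. The higher count was 3 without female statin replicate 1 and 2 without female chow replicate 1, female chow replicate 3 or female statin replicate 2.

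**Figure D3:**
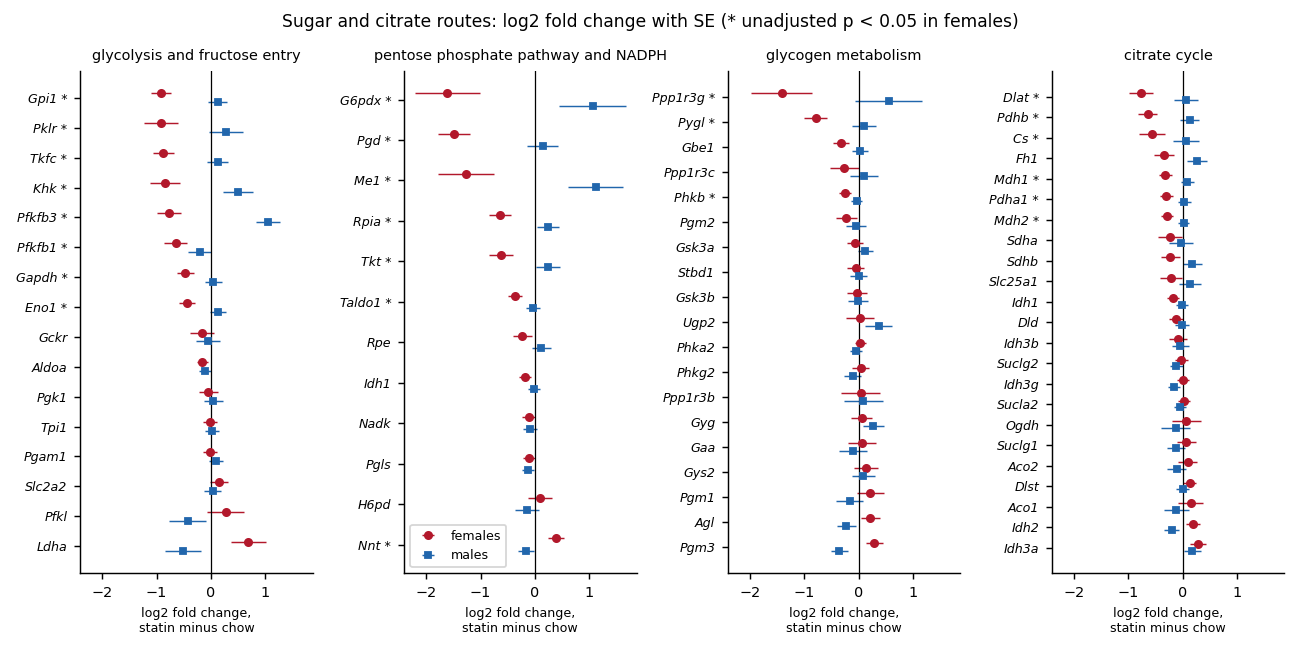
Log2 fold change with statin (x axis) and its SE for tested genes of 4 lists, in females (circles) and males (squares), with an asterisk at genes under an unadjusted p of 0.05 in females. Lower female values gather in glycolysis, the pentose phosphate pathway and part of the citrate cycle, while male values lie on both sides of 0.

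Pyruvate entry and the citrate cycle also held lower members. Of 23 genes 6 were lower and 0 higher, namely Pdhb, Pdha1 and Dlat of pyruvate dehydrogenase, citrate synthase Cs, and the malate dehydrogenases Mdh1 and Mdh2. Pdhb was at 147, 139 and 131 CPM in the 3 chow livers and 116, 77.0 and 74.0 CPM in the 3 statin livers (log2FC -0.64, SE 0.17), and Dlat at 148, 117 and 89.4 CPM in the 3 chow livers and 78.0, 85.2 and 45.8 CPM in the 3 statin livers (log2FC -0.76, SE 0.22). The statin livers lay below the chow livers for these genes except Cs, and the count was 2 without female chow replicate 1 or female statin replicate 3 and 3 without female chow replicate 3. The log2FC was -0.56 (SE 0.24) for Cs, -0.32 (SE 0.13) for Mdh1, -0.29 (SE 0.11) for Mdh2 and -0.30 (SE 0.12) for Pdha1.

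No gene of the respiratory chain was called. Of 74 nuclear genes of its subunits 0 passed in either direction (median -0.06, range -0.32 to 0.19), and of 10 mitochondrially encoded genes 0 (median 0.08). Summed over the nuclear subunits, the level was 12625, 13998 and 14538 CPM in the 3 chow livers and 15362, 10537 and 13036 CPM in the 3 statin livers. Statin replicate 1 was the highest of these 6 livers and replicate 2 the lowest, and these are the 2 livers at the ends of the exon-length axis. Without female statin replicate 1 the lower count was 5, and without replicate 2 it was 1. Cytosolic ribosomal proteins likewise had 0 of 71 called (median -0.05), in every fit that left out 1 female liver.

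The proteasome degrades ubiquitin-tagged protein, and its subunits all shared a sign. Negative log2 fold changes also prevailed among nuclear respiratory chain subunits (53 of 74) and cytosolic ribosomal proteins (51 of 71). Among mitochondrially encoded genes 1 of 10 was negative. Genes of a list are not independent of each other, so such counts are descriptions. All 31 tested subunits had a negative log2 fold change in females (from -0.52 to -0.08, median -0.30), against a median of 0.02 in males, and 9 were lower and 0 higher. The 9 were subunits of the regulatory particle, Psmd12, Psmd7, Psmd2, Psmd11, Psmd1, Psmd3, Psmc1, Psmc2 and Psmc5, and for each the groups did not overlap. Psmd12 was at 69.5, 69.5 and 65.4 CPM in the 3 chow livers and 58.6, 43.8 and 48.3 CPM in the 3 statin livers (log2FC -0.44, SE 0.12, adjusted p = 0.187 in edgeR), and Psmd2 at 195, 168 and 176 CPM in the 3 chow livers and 115, 142 and 119 CPM in the 3 statin livers (log2FC -0.52, SE 0.15). Over the list the summed level was 2657, 3159 and 2839.8 CPM in the 3 chow livers and 2837, 1841 and 2376 CPM in the 3 statin livers. These sums overlapped, since statin replicate 1 stood within the chow range and replicate 2 was the lowest. Without female statin replicate 1 the count was 19, and an offset for transcript length gave 18, while the median was -0.46 without that liver and -0.14 without female statin replicate 2.

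Chaperones of the endoplasmic reticulum and the unfolded protein response had 0 of 22 called and 16 of 22 negative (median -0.19), Hspa5 (BiP) being at a log2FC of -0.30 (SE 0.15). Without female chow replicate 3 the lower count was 5, and without female statin replicates 2 and 3 it was 2 and 4.

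**Figure D4:**
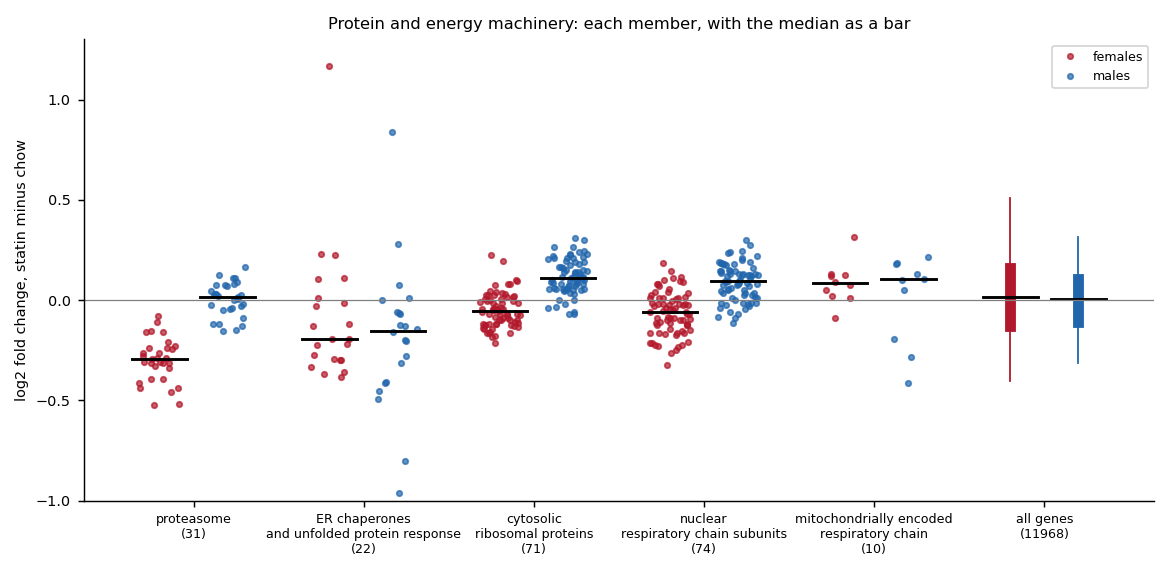
Log2 fold change with statin (y axis) of every tested member of 5 lists, in females (left of each pair) and males (right), with the median as a black bar. For all genes the thick line spans the 25th to the 75th percentile and the thin line the 5th to the 95th. The 31 proteasome values in females all lie below 0, while respiratory chain and ribosomal values lie close to it.

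Lipid handling outside synthesis and oxidation was mixed. In the list of triglyceride synthesis, droplets and VLDL 6 of 22 genes were higher and 3 lower. Higher members included Fitm2, which partitions triglyceride into droplets, at 58.0, 38.6 and 54.1 CPM in the 3 chow livers and 80.4, 96.6 and 89.3 CPM in the 3 statin livers (log2FC 0.82, SE 0.17), the monoglyceride lipase Mgll at 153, 127 and 135 CPM in the 3 chow livers and 209.9, 218 and 294 CPM in the 3 statin livers (log2FC 0.80, SE 0.18), and G0s2, an inhibitor of the lipase ATGL (log2FC 1.20, SE 0.37). The others were the droplet proteins Fitm1 (log2FC 0.84, SE 0.31) and Cidec (log2FC 1.24, SE 0.54) and the apolipoprotein Apoa4 (log2FC 0.74, SE 0.24). The lower members make glycerolipids, namely the acyltransferase Gpam (log2FC -0.89, SE 0.27) and the phosphatidate phosphatases Lpin1 (log2FC -1.62, SE 0.52) and Lpin2 (log2FC -0.46, SE 0.19). Lpin1 was at 762, 402 and 317 CPM in the 3 chow livers and 179.8, 242 and 60.4 CPM in the 3 statin livers, without overlap, and in males its log2 fold change was 1.72 (interaction p before adjustment 6.27e-04). Without female chow replicate 1 the lower count was 1. Acot12, a thioesterase for acetyl-CoA, was just outside the adjusted threshold at 81.5, 90.0 and 94.2 CPM on chow and 157, 127 and 181 CPM on statin (log2FC 0.81, SE 0.13, adjusted p = 0.0503 in edgeR), and Acot4, another neighbour of Acot1 that acts on dicarboxylic acyl-CoA, at a log2FC of 1.07 (SE 0.18, adjusted p = 0.0674).

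Genes of the growth hormone and STAT5 axis were more often higher than lower, 6 of 20 against 0, with a median of 0.20 (0.11 to 0.30 with 1 female liver left out). Igf1, the growth factor the liver releases on growth hormone, was at 311, 314 and 363 CPM in the 3 chow livers and 423, 476 and 565 CPM in the 3 statin livers (log2FC 0.57, SE 0.13). Igfals, which holds IGF-1 in the circulating complex, was at 52.8, 51.4 and 81.5 CPM in the 3 chow livers and 87.7, 150.2 and 144 CPM in the 3 statin livers (log2FC 1.04, SE 0.23). Stat5a was at 10.6, 9.67 and 11.01 CPM in the 3 chow livers and 16.5, 16.7 and 16.7 CPM in the 3 statin livers (log2FC 0.67, SE 0.15). In all 3 genes the statin livers lay wholly above the chow livers, with statin livers nearly equal for Stat5a. Prlr, the prolactin receptor (log2FC 0.95, SE 0.28), and Acot3, which the list shares with the PPAR-alpha targets (log2FC 1.62, SE 0.31), were also higher. The count stayed between 5 and 7 without any 1 female liver. In males the list's median was 0.02 and the log2 fold change of Igf1 -0.016 (interaction p before adjustment 0.00968).

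**Figure D5:**
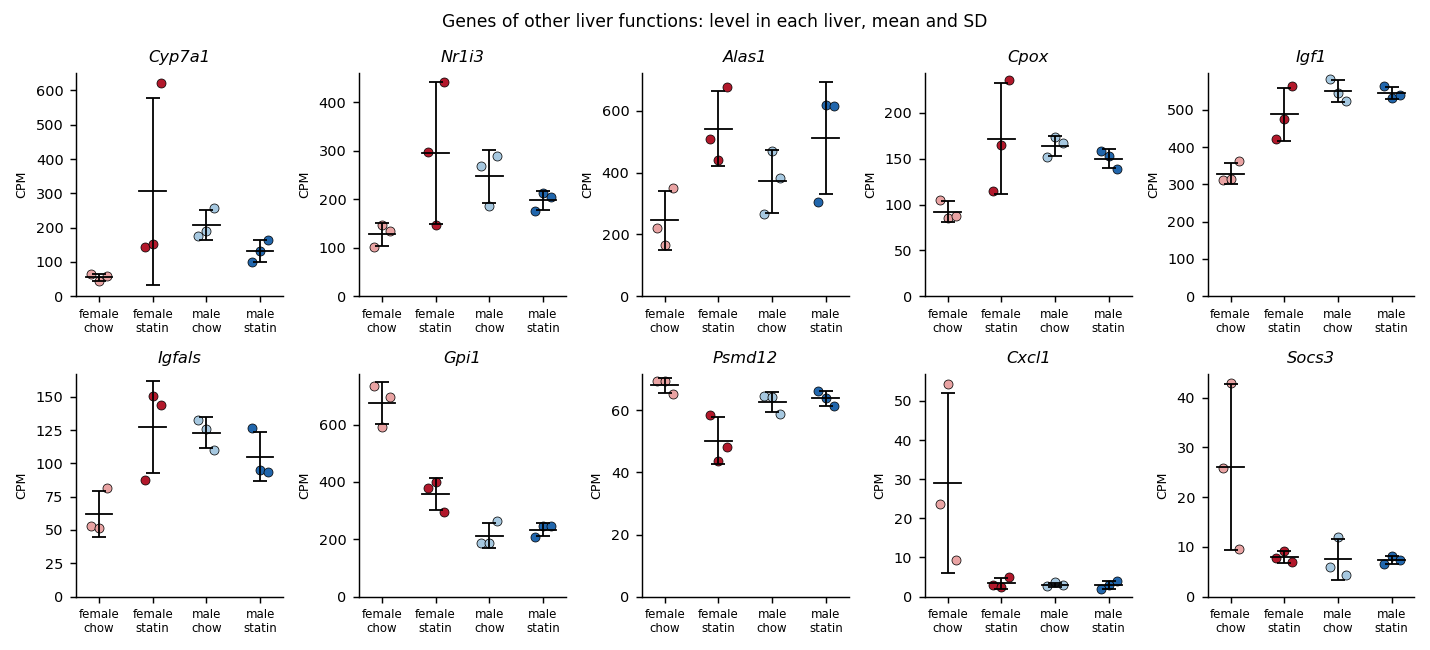
Level in each liver (CPM, linear axis from 0) of 10 genes from the functions described, with points for livers, a bar for the mean and whiskers for the SD of 3 livers. Female groups lie apart for all 10 genes, with narrow gaps for Nr1i3, Socs3, Cpox and Igfals, and single livers stand out for Cyp7a1 on statin and for Cxcl1 and Socs3 on chow.

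A few inflammatory genes were lower. Of 23 acute phase and chemokine genes 3 were lower and 0 higher (median -0.24, or -0.07 without female statin replicate 1 and -0.11 with the replicate number as a block). Cxcl1, a chemokine that draws neutrophils, was at 23.6, 54.4 and 9.25 CPM in the 3 chow livers and 2.94, 2.31 and 4.95 CPM in the 3 statin livers (log2FC -3.10, SE 0.54, adjusted p = 0.0683 in edgeR), and Socs3, which restrains IL-6 signalling, at 25.8, 42.9 and 9.53 CPM in the 3 chow livers and 7.84, 9.21 and 6.90 CPM in the 3 statin livers (log2FC -1.71, SE 0.46). Both were below chow in every statin liver, but the chow livers differed widely among themselves, replicate 2 being the highest and replicate 3 close to the statin livers. Orm3, an acute phase protein, was at a log2FC of -1.23 (SE 0.39), and its close copies Orm1 at a log2FC of -0.47 (SE 0.25) and Orm2 at a log2FC of -0.70 (SE 0.34). Hamp, hepcidin, was at 417, 736 and 529 CPM in the 3 chow livers and 483, 270.3 and 38.8 CPM in the 3 statin livers, with overlap and a log2 fold change of -1.09 (SE 0.84, unadjusted p = 0.221). Tirap, an adaptor of Toll-like receptors, was lower at 34.1, 38.2 and 33.9 CPM on chow and 23.9, 25.0 and 20.2 CPM on statin (log2FC -0.62, SE 0.12, adjusted p = 0.0889 in edgeR).

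Interferon-stimulated genes (0 of 25) and cell cycle genes (0 of 15) were not called in either direction, although 3 interferon genes were higher without female chow replicate 3 and 2 cell cycle genes lower without female statin replicate 1. Of 32 complement and coagulation genes 4 were higher and 1 lower. The mannose-binding lectin Mbl2 was at a log2FC of 0.46 (SE 0.13) and C9, of the membrane attack complex, at a log2FC of -0.45 (SE 0.16). The higher count was 2 without female chow replicate 1, female chow replicate 2 or female statin replicate 3. In the amino acid stress response 2 of 16 were higher, the hormones Fgf21 (1.81, 1.54 and 0.698 CPM on chow and 3.80, 2.84 and 2.34 CPM on statin, log2FC 1.14, SE 0.32) and Gdf15 (2.12, 2.48 and 2.05 CPM on chow and 5.71, 3.78 and 3.10 CPM on statin, log2FC 0.92, SE 0.35). The 3 lower ones were the factor Atf5 (394, 384 and 342 CPM on chow and 253, 272 and 228 CPM on statin, log2FC -0.57, SE 0.12) and the enzymes Psph (log2FC -0.80, SE 0.21) and Asns (log2FC -1.43, SE 0.51). The higher count was 1 without female chow replicate 1 or 3 and the lower count 5 without female chow replicate 3 or female statin replicate 1 or 2.

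Of 38 Rab GTPases and regulators 4 were higher and 2 lower, Rab30 and Tbc1d8 among them, with Rab6a of the Golgi the other lower one (log2FC -0.32, SE 0.10). Of 24 lysosome and autophagy genes 2 were higher, Map1lc3a among them (log2FC 0.46, SE 0.11), and 4 lower, with Sqstm1 (log2FC -0.48, SE 0.14), the kinase Ulk1 (log2FC -0.59, SE 0.20) and cathepsin Ctsl (log2FC -0.36, SE 0.14) among them. The higher Rab count was 2 without female statin replicate 3, and the lower one 4 without female statin replicate 1 and 1 without female chow replicate 1 or female statin replicate 3. The lower lysosome count was 1 without female chow replicate 1 or female statin replicate 3, and the higher one 1 without female chow replicate 1 or 2 or female statin replicate 1 or 2. A further 5 lists held 1 or 2 called members in each direction. Among 19 Nrf2 and antioxidant genes 2 were higher, the glutathione synthetase Gss among them (log2FC 0.86, SE 0.28), and 1 lower, which was Sqstm1, already named, and 3 lay wholly below chow. In iron handling ferroportin, Slc40a1, was higher (log2FC 0.33, SE 0.15) and Smad7 lower (log2FC -0.77, SE 0.27). In phospholipid synthesis the serine exchange enzyme Ptdss1 (log2FC 0.40, SE 0.11) was among 2 higher members, with 1 lower. In the circadian clock Hlf was higher (log2FC 0.49, SE 0.14) and Bhlhe40 lower (log2FC -0.33, SE 0.14). In the urea cycle and amino acid breakdown glutamate dehydrogenase, Glud1, was higher (log2FC 0.31, SE 0.14) and 2 members were lower. The clock genes Arntl and Dbp had log2FC of -0.60 (SE 0.37) and 0.094 (SE 0.18). Kdm5c, the X-linked demethylase the study turned to, was at 95.9, 74.1 and 66.8 CPM on chow and 51.0, 89.8 and 70.5 CPM on statin, with overlap (log2FC -0.16, SE 0.23, unadjusted p = 0.484). Leaving out 1 female liver moved the counts of these lists to between 0 and 5, the highest being 5 clock genes higher without female chow replicate 3, 5 phospholipid genes higher without female statin replicate 2 and 5 urea cycle genes lower without female statin replicate 1.

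Some of the largest differences were in genes of no list. Gm2788, a predicted gene, was at 6.57, 4.39 and 3.58 CPM on chow and 28.1, 14.6 and 49.6 CPM on statin (log2FC 2.66, SE 0.47, adjusted p = 0.0683 in edgeR), and Pcp4l1, a small calmodulin-binding protein, at 6.23, 6.47 and 8.94 CPM on chow and 14.6, 17.3 and 61.3 CPM on statin (log2FC 2.11, SE 0.46), both without overlap. Sema5b, a semaphorin, was at 0.802, 0.273 and 0.327 CPM on chow and 1.99, 2.05 and 1.75 CPM on statin (log2FC 2.03, SE 0.37), and Mmd, a membrane protein first described in macrophages, at 67.0, 80.7 and 85.1 CPM on chow and 142, 117 and 156 CPM on statin (log2FC 0.83, SE 0.15). Among lower genes Acpp, an acid phosphatase, was at 145, 125 and 87.3 CPM on chow and 43.4, 59.1 and 25.4 CPM on statin (log2FC -1.48, SE 0.29). Fam198a was at 17.3, 18.1 and 22.9 CPM on chow and 8.43, 7.03 and 3.20 CPM on statin (log2FC -1.64, SE 0.32) and the anion transporter Slc17a4 at 111, 118 and 108 CPM on chow and 72.4, 56.9 and 37.3 CPM on statin (log2FC -1.01, SE 0.20). Chrna4, a nicotinic receptor subunit, was at 59.5, 95.3 and 52.0 CPM on chow and 34.2, 16.4 and 0.954 CPM on statin (log2FC -2.00, SE 0.90). All 4 lay wholly below chow, with the lowest value in statin replicate 3. Also lower were the G protein subunit Gnai1 (log2FC -1.06, SE 0.22), the myosin light chain Myl9 (log2FC -1.01, SE 0.21) and the annexin Anxa2 (log2FC -0.59, SE 0.12). Since Myl9 and Anxa2 are also expressed in non-parenchymal cells, their values stand beside those of the stellate cell markers given at the start, whose part was not tested.

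For some genes named above 1 liver moved the fold by over 1.5 times without turning its direction. The log2FC of Cyp7a1 was 1.42 and that of Pcp4l1 1.16 without female statin replicate 3. Without female statin replicate 1 it was 0.52 for Cyp3a44, -2.21 for G6pdx, -2.14 for Me1, -2.96 for Chrna4 and -1.84 for Hamp, which was not called. It was -3.54 for Slc2a4 without female statin replicate 2, -2.27 for Cxcl1 without female chow replicate 2 and 2.69 for Sema5b without female chow replicate 1.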

How the data were processed

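RNA of 12 livers (4 groups of 3) was sequenced as poly(A)-selected paired-end libraries made, per the labels, with a strand-specific kit. The submitters' processing notes name STAR 2.4.1a, HTSeq and edgeR 3.28.1 with GRCm38. How counting used strand and multiply mapped reads is not given in the sources used here. The deposited count table holds raw reads per gene, although its name speaks of normalized values, and it lists 11968 genes, each of which exceeded 1 CPM in 6 livers or more. The deposited CPM table covers all annotated genes, from which whole reads were recovered, and it served for genes below that filter (26304 genes had a read). Groups were taken from the labels.

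Counts were scaled by TMM and fitted for all 12 livers in one model with a mean per group by edgeR's quasi-likelihood test (4.0.16, R 4.3.3), which gave female, male and interaction contrasts with Benjamini-Hochberg adjustment over all genes. SE is the size of the log2 fold change over the square root of F, and levels are TMM-scaled CPM. Symbols were found for 99.8% of genes, and positions come from GENCODE vM21. On simulated counts with 200 changed genes for female statin versus chow (11968 genes), edgeR found 137 at a log2 fold change of 1 with 2 false calls and 197 at 2 with 9, and DESeq2 157 with 33 and 198 with 44. The counts were drawn independently, from a single mean per gene over all 12 livers and with the same spread in every group. The real livers had a within-group axis shared by many genes and a wider spread on statin. The simulated recovery and false calls may therefore not hold for them. The alternatives used DESeq2 1.42.0, limma 3.58.1 and the settings in the closing section.

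The livers, gene lists and tests were chosen with earlier results of these data known. Named genes were those at an adjusted p under 0.05, the 15 higher and 15 lower non-overlapping genes of smallest p, up to 5 members of each list by p, 15 well-known genes whatever their values, and the 5 largest changes in each direction among genes of at least 10 CPM. Not all of these are printed, some genes are not reported here though the counts of their lists include them, and further called members of a list were named after their values were seen.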

Additional observations from a re-analysis of the deposited data

How the results depend on the processing

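The 12 calls in females became 270 with DESeq2, 148 with no low-count filter, 6 with a stricter one, 19 with an offset for transcript length and 0 with the female livers alone, and leaving out 1 liver gave 0 to 75. Other scalings, limma and leaving out the 10 highest genes gave 8 to 13. The 1256 genes at the unadjusted threshold became 808 with the female livers alone, and 800 to 1845 when 1 liver was left out (800 without female statin replicate 3). In males DESeq2 called 4 genes, the 234 unadjusted genes became 630 with no low-count filter and 150 with a stricter one, and 127 to 703 with 1 liver left out (703 without male statin replicate 1, 127 without male statin replicate 2). For the interaction DESeq2 called 122 and the fit with no low-count filter 103, leaving out 1 liver gave 0 to 14 (14 without female statin replicate 2), and the 959 unadjusted genes became 1461 with no low-count filter and 694 to 1440 with 1 liver left out (1440 without female statin replicate 1). The cause of these shifts was not tested, although the female-alone fit and the stricter filter have fewer livers and genes by construction. Deviations from the group means were correlated between chow and statin females. For 3 pairs with the same replicate number r was from -0.48 to 0.11 (mean -0.26). Over 6 pairs with different numbers the mean was 0.13. Deviations within a group of 3 sum to 0, which ties these means to each other. Whether the replicate number stands for a shared batch or order therefore cannot be told from them. With the replicate block 5 genes were called in females, 4 of them among the 12 (Acot1, Acot2, Ralgps1 and Cyp3a16). Among named genes without a call, the log2 fold change crossed 0 when 1 liver was left out for Cyp3a11 (-0.027 to 0.41), Dbp (-0.060 to 0.30), G6pc (-0.43 to 0.18), and Kdm5c (-0.38 to 0.030). On simulated counts edgeR found 137 of 200 genes changed by 1 on the log2 scale, and smaller changes were not simulated. Those counts had the same spread in every group and no axis shared by genes, unlike these livers.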

Other observations

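A pair of gene families was looked at after their values had been seen, so their counts are descriptions. Cytosolic heat shock proteins and co-chaperones had more lower than higher members in females, with 10 of 29 tested genes lower and 2 higher at an unadjusted p under 0.05, 22 of 29 log2 fold changes negative, and a median of -0.13 (0.04 in males). Over all genes 4.56% were lower and 5.93% higher at that threshold. Of the genes named here Hspb1 and Stip1 were lower in males too, with male log2 fold changes of -0.63 (unadjusted p = 0.0360) and -0.28 (unadjusted p = 0.0402) in edgeR and interaction p-values before adjustment of 0.129 and 0.186. Hspa4l, the member with the smallest female p-value, had a log2FC of -0.61 (SE 0.12, unadjusted p = 2.85e-04 in edgeR). Its male log2 fold change was 0.17 and its interaction p before adjustment 6.60e-04. Hspb1, a small heat shock protein, was at 7.11, 10.4 and 12.1 CPM in the 3 chow livers and 3.53, 4.49 and 4.49 CPM in the 3 statin livers (log2FC -1.24, SE 0.27, unadjusted p = 6.08e-04). The stress-inducible Hsp90aa1 was at 79.9, 82.4 and 99.6 CPM in the 3 chow livers and 50.1, 61.3 and 67.9 CPM in the 3 statin livers (log2FC -0.55, SE 0.14), the HSP70-HSP90 adaptor Stip1 at a log2FC of -0.51 (SE 0.12), the co-chaperone Bag3 at a log2FC of -0.52 (SE 0.18) and Hsf1, the factor that drives these genes, at a log2FC of -0.29 (SE 0.11). Higher were the HSP40 proteins Dnaja1 (log2FC 0.32, SE 0.14) and Dnajb6 (log2FC 0.33, SE 0.15).

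Among immediate-early and feedback genes 5 of 16 were lower and 0 higher (median -0.36, and -0.04 in males), against 4.56% lower and 5.93% higher of all genes. Gadd45g, a stress-induced regulator of growth, was at 8.56, 27.9 and 11.8 CPM in the 3 chow livers and 5.40, 3.55 and 3.95 CPM in the 3 statin livers (log2FC -1.90, SE 0.69, unadjusted p = 0.0168). Junb, a subunit of the factor AP-1, was at 43.4, 65.7 and 29.2 CPM in the 3 chow livers and 16.1, 27.5 and 12.4 CPM in the 3 statin livers (log2FC -1.30, SE 0.30, unadjusted p = 0.00104), and Dusp6, a phosphatase that ends ERK signalling, at a log2FC of -0.83 (SE 0.24). Without female chow replicate 2 the log2 fold change of Gadd45g was -1.24. The counts of these families were not recomputed without single livers.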
